A study of Mus musculus with 4 samples.

Results

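The genes described here are 7 that build and shape caveolae, read in single endothelial cells of the mouse aorta: *Cav1*, *Cav2*, *Ptrf*, *Sdpr*, *Prkcdbp*, *Ehd2* and *Ehd4*. They were chosen by symbol and are 7 of the 16408 nuclear genes listed in the 4 plates. The files use the older symbols for the cavins, so that *Ptrf* is *Cavin1*, *Sdpr* is *Cavin2* and *Prkcdbp* is *Cavin3*.

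Caveolae are small flask-shaped pits of the plasma membrane, and endothelial cells are among the cells richest in them. Caveolins are hairpin membrane proteins that gather with cholesterol, cavins form a coat over the caveolin-rich membrane, and EHD proteins are ATPases that bind at or near the neck of the pit. In endothelium, caveolae hold and restrain the endothelial nitric oxide synthase, flatten when the membrane is stretched and carry cargo across the cell.

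The cells came from aortas of 4 C57BL/6 mice and were sorted as CD31-positive, CD45-negative and viable, 1 plate of 384 wells per mouse. Both groups carried the floxed alleles *Epas1*fl/fl, which allow deletion of *Epas1*, the gene of the hypoxia-inducible factor HIF-2α. The 2 mice labelled EC-KO also carried Cdh5Cre/+, a tamoxifen-inducible Cre driven by the promoter of the endothelial gene *Cdh5*. The 2 labelled EC-WT were Cdh5+/+ littermates, and every mouse, with or without Cre, was given tamoxifen at 6 weeks of age, 2 weeks before its cells were taken. The comparison asks whether caveola genes differ in endothelial cells that lack *Epas1*. The tags read the 3′ end of a transcript and do not check that deletion: *Epas1* differed by 0.19 on the log2 scale (SE 0.21, adjusted p = 0.957, edgeR), with the higher mean in the mice labelled EC-KO. The study's text gives more cells for EC-WT than for EC-KO, the reverse of the order in the files, so the genotypes are given throughout as labelled. The study also measured *Epas1* by PCR and by staining in mice of this cross, and those data were not analysed here.

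Sequence helps to place 3 of the genes, because *Cav1* and *Cav2* are neighbours and because HIF proteins bind a short core motif. *Cav2* (chr6:17281185-17289115) and *Cav1* (chr6:17306335-17341452) lie on the plus strand of chromosome 6 in GRCm38 (GENCODE M21). *Cav1* starts 17220 bases after the end position of *Cav2*. *Ptrf* lies on the minus strand at chr11:100956733-100970887. *Sdpr* is at chr1:51289126-51302960 on the plus strand, *Prkcdbp* at chr7:105480083-105482300, *Ehd2* at chr7:15946958-15967567 and *Ehd4* at chr2:120089175-120154606, the last 3 on the minus strand. The RefSeq promoter windows (GRCm38.p6), which run from 250 bases before to 50 bases after a transcription start, are shown for these 3 genes. Capitals mark the HIF core, ACGTG or GCGTG read on either strand.
Cav1 promoter, chr6:17306085-17306384, plus strand: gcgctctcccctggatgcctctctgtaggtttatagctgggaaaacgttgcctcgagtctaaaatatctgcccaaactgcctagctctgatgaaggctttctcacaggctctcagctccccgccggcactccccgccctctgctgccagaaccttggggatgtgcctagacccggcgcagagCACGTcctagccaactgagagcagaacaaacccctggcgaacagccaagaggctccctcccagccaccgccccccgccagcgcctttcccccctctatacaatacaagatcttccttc
Cav2 promoter, chr6:17280935-17281234, plus strand: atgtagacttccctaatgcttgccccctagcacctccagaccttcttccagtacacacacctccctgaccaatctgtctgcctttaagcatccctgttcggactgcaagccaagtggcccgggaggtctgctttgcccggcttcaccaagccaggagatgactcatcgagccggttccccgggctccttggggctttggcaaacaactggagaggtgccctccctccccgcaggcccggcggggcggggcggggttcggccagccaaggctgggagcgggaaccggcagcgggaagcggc
Ptrf promoter, chr11:100970568-100970867, minus strand: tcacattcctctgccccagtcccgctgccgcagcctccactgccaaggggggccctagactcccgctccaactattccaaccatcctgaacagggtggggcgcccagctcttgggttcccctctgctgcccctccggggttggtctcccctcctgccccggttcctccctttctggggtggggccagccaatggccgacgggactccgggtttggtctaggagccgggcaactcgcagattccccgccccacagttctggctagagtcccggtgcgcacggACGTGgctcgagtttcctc

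The HIF core was found in the windows of 3 of the 6 genes that had one, *Cav1*, *Ptrf* and *Ehd2*, and in 43.8% of the 32851 mouse windows of the same length. *Cav1* has 2 windows and *Ptrf* has 2 that differ by 2 bases in position; the first of each is shown. The match of *Cav1* starts at position -68 and that of *Ptrf* at position 32 after the start, while the window of *Ehd2* holds 3 matches. The GC box GGGCGG, on either strand, lay in the windows of 5 of the 6 genes against 35.7% of all windows, and the CArG box lay in none of them against 1.63%. *Sdpr* was the gene without a GC box, and its window had 43.3% G and C against 59.3% to 67.0% in the others. A match of letters is a description and not a bound site.

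A well was kept as a cell when it held at least 1000 unique molecular identifiers (UMIs) of nuclear genes and at most 25% mitochondrial UMIs. This left 157, 98, 114 and 72 cells in EC-KO mouse 1, EC-KO mouse 2, EC-WT mouse 1 and EC-WT mouse 2, the order used for all lists of 4 values below, with medians of 5796, 7419, 3779 and 5753 UMIs per cell. Of these 441 cells, 15 formed a smooth muscle-like cluster led by *Tagln*, *Myh11* and *Acta2*, and the other 426 are called endothelial cells here. In their 5 clusters, numbered 0 to 4, the endothelial markers summed to 12628, 13402, 11377, 13093 and 16085 CPM with 12 to 14 of the 14 read, against 2395 CPM in the smooth muscle-like cells. None of these markers was among the 10 leading genes of a cluster, and cluster 2 had the fibroblast markers *Dcn* and *Lum* among its own. All 14 endothelial markers searched for were found in every mouse, at 11157 to 14692 CPM in sum. Smooth muscle markers summed to 951 and 982 CPM in the endothelial cells of the mice labelled EC-KO and to 362 and 329 CPM in those labelled EC-WT. Fibroblast markers summed to 2411, 1244, 753 and 1079 CPM, while the 4 of 10 immune markers that the files list summed to 1.82 to 6.61 CPM. CPM is the number of UMIs of a gene per 1000000 nuclear UMIs of a mouse. One mouse is 1 replicate and n is 2 per group, so that p-values measure only the spread between these mice.

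All 7 caveola genes were read in the aortic endothelial cells of every mouse, and 4 of them ranked between 36th and 96th of all detected genes. *Cav1*, the caveolin without which endothelial caveolae do not form, averaged 2059 ± 430 CPM (SD, n = 4 mice), rank 36 of 16035 detected genes. *Sdpr*, the cavin that bends caveolar membrane, followed with 1550.2 ± 106 CPM and rank 55. *Ehd4*, a close relative of the neck protein EHD2, had 1337 ± 137 CPM and rank 72. The cavin required for the coat, *Ptrf*, had 1079 ± 219 CPM and rank 96. *Cav2*, the partner of *Cav1*, had 495 ± 39.6 CPM and rank 290. *Prkcdbp*, the third cavin, had 405 ± 50.9 CPM and rank 372, and *Ehd2* had 175 ± 29.9 CPM and rank 970. Each transcript is counted once by its 3′ tag, so these levels carry no length term. The order of neighbours held in 4 of 4 mice for every step but *Sdpr* over *Ehd4*, which held in 3 of 4. Summed over the 7 genes the level was 6442, 6969, 7067 and 7924 CPM.

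**Figure D1:**
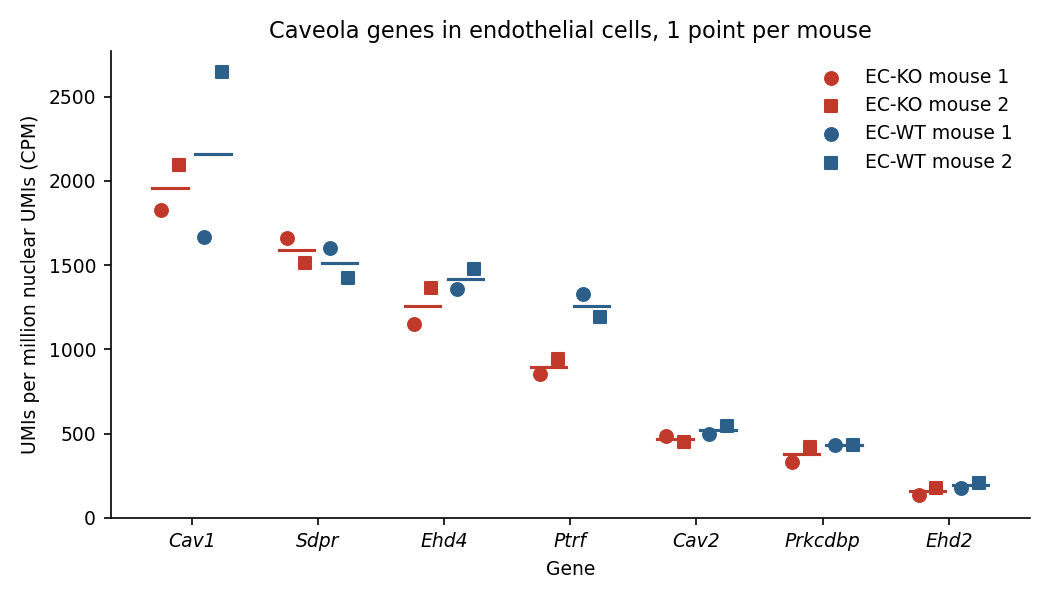
CPM (UMIs per 1000000 nuclear UMIs, linear axis) of the 7 caveola genes in endothelial cells, with 1 point per mouse (red EC-KO, blue EC-WT) and a short line at the mean of the 2 mice of a group. The 2 EC-KO points of *Ptrf*, at 856 and 941 CPM, lie below the 2 EC-WT points, at 1190.0 and 1329 CPM, while the groups overlap for *Cav1*, *Sdpr*, *Ehd2* and *Ehd4*.

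Nearly every endothelial cell held caveola transcripts. Only 2 of the 426 cells, both of EC-KO mouse 1, had no UMI of any of the 7 genes, and these cells had a median of 1058 UMIs. All 7 genes were read in 164 cells, whose median was 8948 UMIs. The number of genes read therefore moved with depth, and shares of cells are given after each cell was thinned to 1000 UMIs. On that scale *Cav1* was read in 69.1% to 79.7% of cells per mouse and *Sdpr* in 70.2% to 75.7%. *Cav2* was read in 30.2% to 40.7%, and *Ehd2* in 12.1% to 17.02%. Without thinning, *Cav1* was read in 94.6% to 98.6% of cells and *Ehd2* in 46.3% to 61.7%. In the 480 wells of plate rows L to P, none of which passed the filter, *Cav1* reached 0.0958 UMIs per well against 9.54 to 20.8 per endothelial cell, which is the level of RNA outside kept cells.

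None of the 7 caveola genes was called between the genotypes at an adjusted p of 0.05 (edgeR quasi-likelihood test on UMIs summed per mouse), beside 0.0123% of the 8145 genes tested. At an unadjusted p under 0.05 there was 1, *Ptrf*, beside 5.45% of all genes, and DESeq2 gave the same 2 counts, 0 called and 1 at the unadjusted threshold. Fitted values lay below 0 for 6 of the 7 genes, with a median log2 fold change of -0.14 for EC-KO over EC-WT against 0.00 over all genes tested. On read counts they lay below 0 for 3 of the 7, with a median of 0.022. The single gene called in the whole comparison was *Acta2*, a smooth muscle actin, higher in the mice labelled EC-KO (log2 fold change 1.91, SE 0.21, adjusted p = 0.00292, edgeR), although the smooth muscle-like cluster was left out. *Acta2* was not called with a block on replicate number or on read counts (adjusted p = 0.096 and 0.849, edgeR).

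*Ptrf* had the largest difference of the 7 in the fit to UMIs of all endothelial cells. Its level was 856 and 941 CPM in the mice labelled EC-KO and 1329 and 1190.0 CPM in those labelled EC-WT, so the groups did not overlap. The fitted log2 fold change was -0.46 (SE 0.18, unadjusted p = 0.0249, adjusted p = 0.879, edgeR), a level 27.1% lower that did not pass the test. Leaving out either mouse labelled EC-KO, or EC-WT mouse 1, brought the unadjusted p to 0.122, 0.0687 and 0.120, and leaving out EC-WT mouse 2 brought it to 0.0134 (edgeR). In a sum per mouse, fewer cells with a transcript and less of it per cell cannot be told apart. Both mice labelled EC-KO were below both labelled EC-WT also for *Cav2* and *Prkcdbp*, beside 19.9% of all genes tested. For *Cav2* the levels were 485, 452, 496 and 548 CPM, with a log2 fold change of -0.12 (SE 0.18, adjusted p = 0.976, edgeR). For *Prkcdbp* they were 329, 423, 434 and 435 CPM, with -0.18 (SE 0.19, adjusted p = 0.955, edgeR). In both genes the higher EC-KO mouse and the lower EC-WT mouse were closer to each other than the 2 EC-KO mice were.

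In the other 4 genes the groups overlapped. *Cav1* was at 1826, 2094, 1669 and 2648 CPM, so that the 2 mice labelled EC-WT were the lowest and the highest of the 4. Its log2 fold change of -0.10 (SE 0.22, adjusted p = 0.984, edgeR) rested on EC-WT mouse 2 and was 0.24 without it, and it was 0.073 on read counts. In that mouse a single cell held 187 of the 1455 *Cav1* UMIs, or 12.9%. *Sdpr* was at 1663, 1514, 1603 and 1421 CPM and was the gene with a fitted value above 0, at 0.11 (SE 0.19, adjusted p = 0.982, edgeR). This value was 0.0031 without EC-KO mouse 1 and 0.00032 without EC-WT mouse 2. Without EC-KO mouse 2 it was 0.20, and without EC-WT mouse 1 it was 0.22. In the pair of mice taken to share a flow cell it was -0.11. The flow cell was inferred from a code in the names of the deposited counts, and the sample titles do not state it. *Ehd4* was at 1149, 1364, 1358 and 1478 CPM, with EC-KO mouse 1 lowest and EC-WT mouse 2 highest (log2 fold change -0.14, SE 0.18, adjusted p = 0.966, edgeR). *Ehd2*, with 113 to 137 UMIs per mouse the least deeply read, was at 134, 179.8, 179.6 and 206 CPM (log2 fold change -0.27, SE 0.21, adjusted p = 0.917, edgeR).

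The ratio of 2 cavins sets *Sdpr*, the caveola gene with the highest fitted value, over *Ptrf*, the one with the lowest. It uses the same UMIs as the levels above and is not a separate result. The share of other gene pairs whose ratio separates the labels was not computed. For each *Ptrf* UMI there were 1.94 and 1.61 *Sdpr* UMIs in the mice labelled EC-KO and 1.21 and 1.19 in those labelled EC-WT. *Ptrf* per *Cav1* UMI was 0.469, 0.449, 0.796 and 0.449, so that EC-WT mouse 1 alone stood apart on that ratio. *Cav2* per *Cav1* UMI was 0.266, 0.216, 0.297 and 0.207, with no order by genotype. These ratios within a mouse show unequal levels and not which of 2 genes differs, and they were formed after the values were seen and were not tested.

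**Figure D2:**
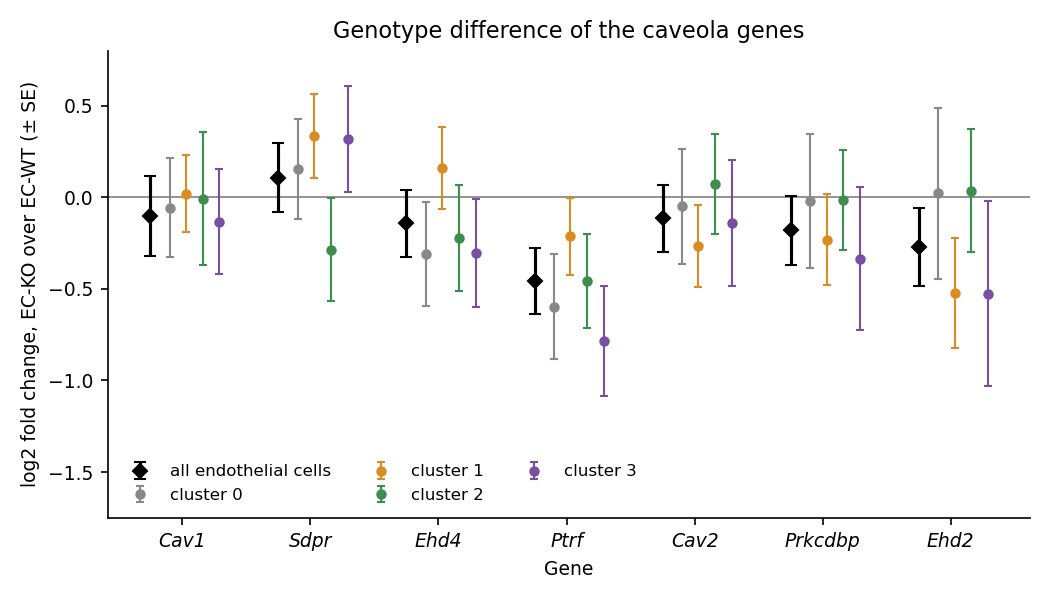
Log2 fold change (EC-KO over EC-WT, edgeR, linear axis of log2 values) of each caveola gene, with its standard error, over all endothelial cells (black diamonds) and within clusters 0 to 3 (circles). *Ptrf* lies below 0 in all 5 fits, from -0.21 in cluster 1 to -0.79 in cluster 3, and no point passed an adjusted p of 0.05.

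The lower *Ptrf* level of the mice labelled EC-KO was also found within each of the 4 clusters that could be compared, which share these 4 mice. In cluster 0, *Ptrf* was at 742 and 1295 CPM against 1797 and 1484 CPM. In cluster 1 it was at 924 and 903 CPM against 1046 and 1095 CPM. In cluster 2, led by *Dcn*, it was at 829 and 888 CPM against 1296 and 1077 CPM. In cluster 3 it was at 803 and 761 CPM against 1535 and 1362 CPM. The groups did not overlap in any of the 4 clusters, beside 26.8%, 17.5%, 18.1% and 21.2% of the genes tested there with both mice labelled EC-KO below both labelled EC-WT. With 1 mouse left out, the fitted *Ptrf* value ran from -0.91 to -0.29 in cluster 0 and from -0.62 to -0.26 in cluster 2. It ran from -0.22 to -0.16 in cluster 1 and from -0.88 to -0.64 in cluster 3. With all 4 mice the fitted log2 fold changes were -0.60, -0.21, -0.46 and -0.79. None passed the test (adjusted p of 0.714, 0.965, 0.995 and 0.858, edgeR), and none of the 7 genes was called in any of these clusters, beside 0.986%, 0.0182%, 0.0781% and 0% of the genes tested there. *Ptrf* was under an unadjusted p of 0.05 in clusters 0 and 3 and no caveola gene was in clusters 1 and 2, beside 6.96% and 4.57%, and 4.5% and 4.58%, of the genes tested there.

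Depth, smooth muscle RNA and flow cell were each looked at beside this difference. After thinning to 1000 UMIs, *Ptrf* was read in 54.4% of cells of EC-KO mouse 1 (exact binomial 95% interval 46.0% to 62.5%) and 60.6% of EC-KO mouse 2 (50.02% to 70.6%). In EC-WT mouse 1 it was 75.2% (66.2% to 82.9%) and in EC-WT mouse 2 70.0% (57.9% to 80.4%). The means differed by -15.1 percentage points (exact 2-sided permutation test, p = 0.333, the smallest that 2 against 2 mice allow). Without thinning the mean shares were 92.6% in EC-KO and 94.0% in EC-WT, a difference of -1.40 points. Summed over thinned cells, the log2 fold change was -0.73 (unadjusted p = 0.0033, adjusted p = 0.271, edgeR), over 1.5 times the main value. In the 177 endothelial cells without an *Acta2* UMI, *Ptrf* was at 909, 1095, 1491 and 1208 CPM, with a log2 fold change of -0.54 (unadjusted p = 0.122, edgeR), although EC-KO mouse 2 had only 5 such cells. In these cells *Cav1*, *Ehd2*, *Prkcdbp* and *Ehd4* had -0.59, -0.55, -0.39 and -0.28, *Cav2* had -0.17 and *Sdpr* -0.0068, none of them called. The 5 cells held 18269 UMIs, of which 1 was of *Ehd2*, 4 of *Cav2* and 6 of *Prkcdbp*, too few to compare these values with those of all endothelial cells. EC-KO mouse 2 and EC-WT mouse 1, which share the code taken as the flow cell, differed by -0.52 on the log2 scale.

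The pooled level of *Ptrf* also moved with the depth of a cell. Over all mice it was lower in deeper cells, from 1572 CPM in the 66 cells of 1000 to 2000 UMIs to 1203, 1034 and 993 CPM in successively deeper bins. The shallowest bin was above the deepest in EC-WT mouse 1, with 2105 and 1263 CPM, and in EC-WT mouse 2, with 1788 and 1047 CPM, though not at every step between. In the mice labelled EC-KO the shallowest and deepest bins held 696 and 874 CPM, and 924 and 902 CPM. In cells of at least 8000 UMIs both mice labelled EC-KO were thus below both labelled EC-WT. The share of all genes in this order was not computed for single bins. Over all endothelial cells it was 19.9%. *Ehd4* went the other way, with 985 CPM in the shallowest and 1385 CPM in the deepest bin. *Cav1*, over the same bins, was at 1688, 2049, 1832 and 2098 CPM, and *Sdpr* at 1384, 1460.1, 1561 and 1596 CPM. The shallowest bin held 15, 9, 30 and 12 cells of the 4 mice, so the mice enter the pooled levels in unequal shares.

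**Figure D3:**
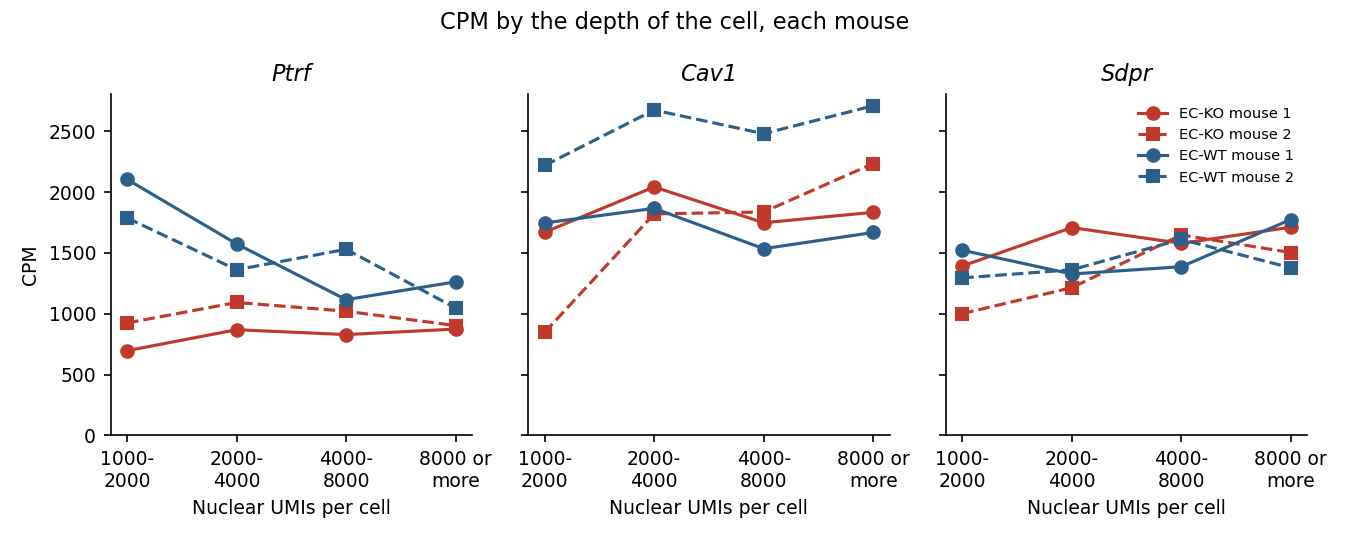
CPM of *Ptrf*, *Cav1* and *Sdpr* in endothelial cells grouped by their nuclear UMIs, 1 line per mouse (red EC-KO, blue EC-WT, linear axes). The blue *Ptrf* lines run from 2105 and 1788 CPM in the shallowest cells to 1263 and 1047 CPM in the deepest, and the red lines stay between 696 and 1093 CPM.

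Read counts, which keep copies made by amplification, moved *Cav2* further than the other 6 genes. Its log2 fold change was 0.75 on reads (adjusted p = 0.849, edgeR) against -0.12 on UMIs. Each *Cav2* UMI was read 5.71, 10.1, 6.83 and 6.16 times, while each *Cav1* UMI was read 10.5, 20.3, 18.8 and 22.0 times. The amplification of *Cav2* therefore did not follow that of *Cav1* from mouse to mouse, and UMIs are used for all levels given here.

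The caveola genes did not fall together in the cells of the smooth muscle-like cluster, which serve as a contrast within the same plates. Since the clusters were made from these cells, with the 7 genes left out, their levels are a description and were not tested. *Ehd4* was at 150.4 CPM there against 1309.7 CPM in endothelial cells, a ratio of 0.115, and *Sdpr* at 407 against 1567 CPM, a ratio of 0.259. Both were lower in 4 of 4 mice, although the ratio of *Sdpr* was 0.083, 0.314, 0 and 0.809 by mouse, the third from 1 cell. With each cell thinned to 1000 UMIs, *Sdpr* was at 66.7 CPM on 1 UMI and *Ehd4* at 133 CPM on 2 UMIs. *Cav1* was at 964 CPM, a ratio of 0.479, and *Cav2* at 356 CPM, a ratio of 0.727, again lower in 4 of 4 mice. *Ptrf* and *Ehd2* stood at 1.05 and 0.858 times the endothelial level, with *Ptrf* higher in 2 and *Ehd2* in 3 of 4 mice, so that the pooled level of *Ehd2* and most mice went apart. The thinned level of *Ehd2* was 267 CPM on 4 UMIs against 169 CPM in endothelial cells, a ratio of 1.58, so its direction is not settled at this depth. *Prkcdbp* was higher in the smooth muscle-like cells, at 707 against 395 CPM. By mouse it was at 553, 718, 3147 and 787 CPM there against 329, 423, 434 and 435 CPM, a ratio of 1.68 to 7.26. The mice gave 8, 4, 1 and 2 of these cells, and the highest value rests on 10 UMIs in 1 cell, which held no UMI of *Cav1*, *Cav2*, *Sdpr* or *Ehd4*. Fibroblast markers summed to 8361 CPM and endothelial markers to 2395 CPM in this cluster.

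Within endothelium, *Sdpr* was highest in 1 small cluster, with and without thinning. It reached 2958 CPM in the 23 cells of cluster 4, led by *Fabp4* and *Cd36*, which bind and take up fatty acids, against 1413 to 1602 CPM in the other endothelial clusters, and was at 2870 CPM there after thinning. By mouse it was at 2699, 3535, 2454 and 3235 CPM in cluster 4 and at 1630, 1440.1, 1557 and 1298 CPM in the other endothelial cells. The ratio was 1.58 to 2.49, above 1 in 4 of 4 mice, on 6, 3, 8 and 6 cells. *Prkcdbp* was at 560.1 CPM in cluster 4, above the other endothelial cells of 3 of 4 mice. *Cav1*, at 2161 CPM, was above them in 2 of 4 mice. After thinning, *Prkcdbp* was at 435 CPM in cluster 4 on 10 UMIs and was highest in cluster 2, at 460 CPM. Taken by *Cd36* alone, 35 endothelial cells with a *Cd36* UMI had 2038 CPM of *Sdpr* against 1516 CPM in the 391 without, with ratios of 1.41, 1.803, 0.857 and 1.65. That split, made after the values were seen, was thus smaller and did not hold in EC-WT mouse 1.

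**Figure D4:**
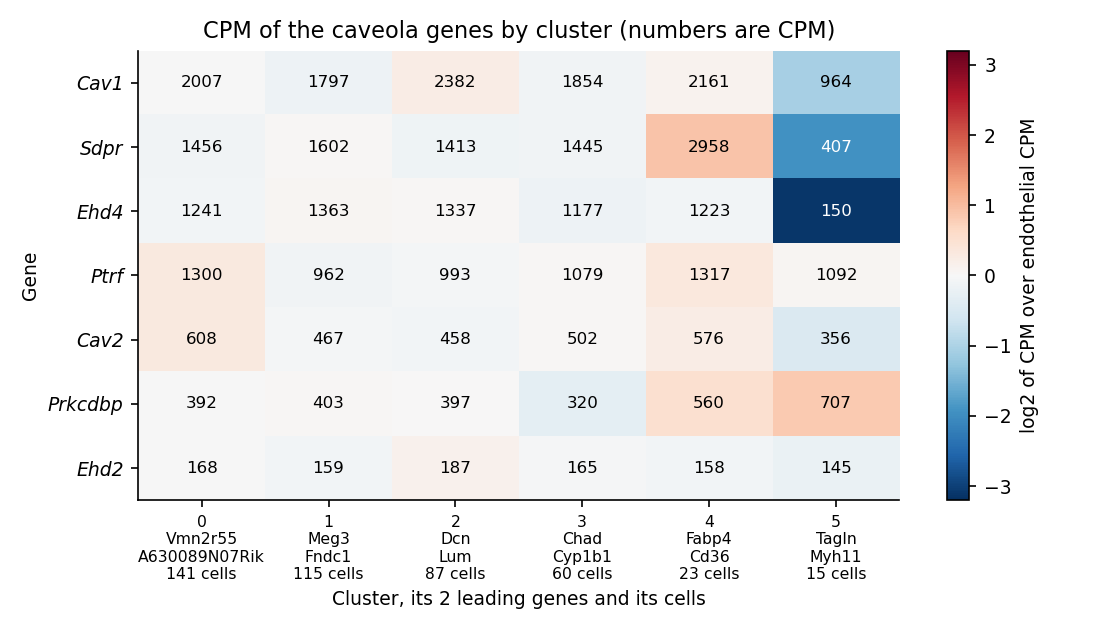
CPM of the 7 caveola genes (numbers) in the 6 clusters, with colour for the log2 ratio of that CPM to the level over all endothelial cells. *Sdpr* stands out in cluster 4 (2958 CPM), and *Ehd4* (150.4 CPM) and *Sdpr* (407 CPM) are lowest in cluster 5, the smooth muscle-like cells.

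How far the other caveola genes ranged over the endothelial clusters depended on depth. On the deposited UMIs, the highest and the lowest of the 5 clusters differed 1.16-fold for *Ehd4*, 1.18-fold for *Ehd2*, 1.33-fold for *Cav1* and *Cav2*, 1.37-fold for *Ptrf*, 1.75-fold for *Prkcdbp* and 2.09-fold for *Sdpr*. These levels are summed over mice, and the highest cluster was above the lowest in 4 of 4 mice for *Ptrf* and *Sdpr*, in 3 for *Ehd4*, *Cav1*, *Cav2* and *Prkcdbp* and in 2 for *Ehd2*. With cells thinned to 1000 UMIs the ratios were 1.30, 2.72, 1.47, 1.65, 2.11, 2.30 and 2.39 in the same order, that of *Ehd2* resting on 8 UMIs in its lowest and 15 in its highest cluster. The order of the genes by this range thus changed with depth. *Cav1* stood at 2382 CPM in cluster 2, led by *Dcn*, *Lum* and *Thbs1*, and was above the other endothelial cells in 3 of 4 mice. Without EC-WT mouse 2 this level was 2000 CPM, below the 2265 CPM of cluster 4, and after thinning cluster 4 was also the highest, at 2261 CPM. In cluster 1, led by *Meg3*, *Fndc1* and *Bmp2*, *Cav1* was at 1797 CPM, below the others in 4 of 4 mice, while the lowest thinned level was 1533 CPM in cluster 3. After thinning, *Cav2* and *Ptrf* were highest in cluster 4, at 522 and 1783 CPM, against 504 and 1333 CPM in cluster 0. The *Cav2* level of cluster 4 rested on 12 UMIs, too few to tell it from that of cluster 0. Without thinning *Ptrf* was also highest in cluster 4, at 1317 CPM, but this order rested on single mice. Cluster 0 was above cluster 4 without EC-KO mouse 1, at 1594 against 1439 CPM. It was also above without EC-KO mouse 2, at 1301 against 1238 CPM, and without EC-WT mouse 2, at 1264 against 1198 CPM. Without EC-WT mouse 1 it was below, at 1057 against 1397 CPM. *Cav2* and *Ptrf* were at 608 and 1300.3 CPM in cluster 0, each above the other endothelial cells in 3 of 4 mice. *Cav2* was below them in EC-KO mouse 2, at a ratio of 0.883, and *Ptrf* in EC-KO mouse 1, at 0.851. The cells of this cluster held a median of 2237 UMIs and had no gene of the marker lists among their 10 leading genes. Fibroblast markers summed to 2840 CPM in cluster 2 against 999.8 to 1042 CPM in clusters 0, 1 and 3, and their part in its *Cav1* level was not tested.

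Each of the 7 genes varied more from cell to cell than counting alone would give. The ratio of the variance to that expected from counting alone at each cell's depth was 5.02 for *Cav1* (2.44 to 7.66 over mice). It was 3.39 for *Sdpr*, 2.67 for *Ehd4* and 2.08 for *Ptrf*, and *Prkcdbp*, *Ehd2* and *Cav2* had 1.76, 1.66 and 1.54. The median over 406 genes with at least 200 UMIs in every mouse was 2.13, so that 3 of the 7 lay above it and 4 below. At equal relative spread this ratio is larger for genes with more UMIs, and apart from *Cav2* its order was that of the levels, so it does not compare evenness between the genes.

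The caveolins were the pair that varied together most. Across the cells of a mouse, *Cav1* and *Cav2* correlated with a mean Pearson r of 0.31, and with 0.28, 0.24, 0.47 and 0.25 in the 4 mice. Over 82215 pairs of the 406 genes with at least 200 UMIs in every mouse, 6 of the 7 caveola genes among them, the mean r had a median of 0.0073, a 95th percentile of 0.178 and a 99th percentile of 0.31. Of the pairs of caveola genes, 1, *Cav1* and *Cav2*, passed the 95th percentile. *Cav1* and *Ptrf* had a mean r of 0.17, with 0.12 to 0.20 over mice, and *Cav1* with *Ehd4* and *Prkcdbp* had 0.11 and 0.10, each above 0 in 4 of 4 mice. *Cav1* and *Sdpr* had a mean r of -0.10 and were above 0 only in EC-KO mouse 1, but the mean turned to 0.12 on log-normalized values. *Sdpr* instead had its highest mean r, 0.16, with *Ehd4*, at 0.23, 0.04, 0.41 and -0.06. Of the 21 pairs, 7 were above 0 in each mouse, among them *Prkcdbp* with *Ehd2*. The share over the 82215 pairs, which leave out *Ehd2* for its few UMIs, was 15.5%. These correlations are across cells that share a plate, were corrected for depth only and carry no test.

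**Figure D5:**
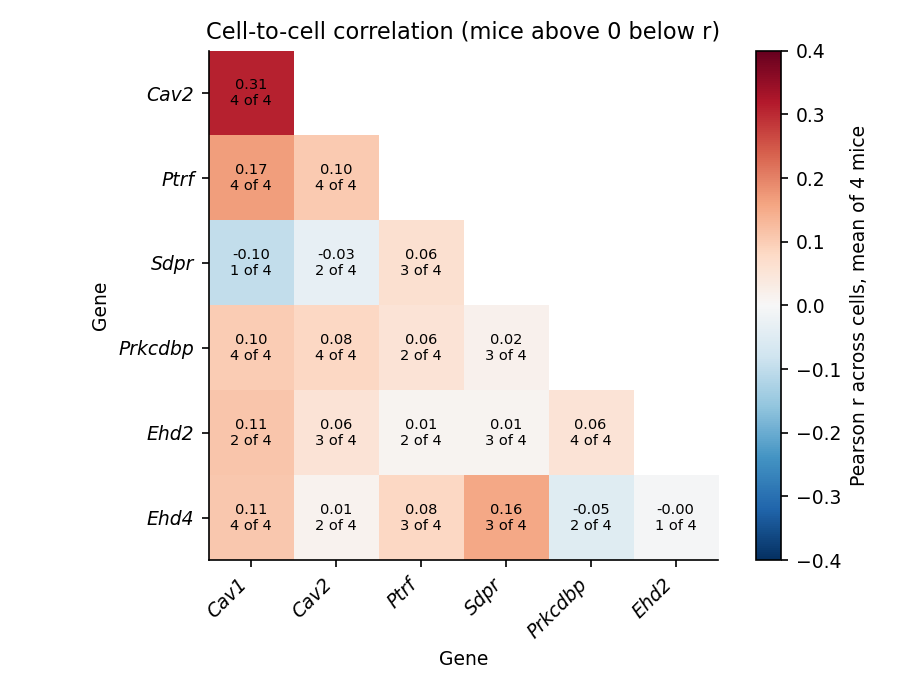
Mean over 4 mice of the Pearson correlation of 2 caveola genes across endothelial cells (colour and upper figure of each square), with the number of mice in which it was above 0 (lower figure). *Cav1* with *Cav2* is highest at 0.31, and *Cav1* with *Sdpr* is lowest at -0.10.

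Outside the 7 genes, the 5 most like *Cav1* across cells among 400 genes were *Vim* (mean r 0.36), which encodes the intermediate filament vimentin, *Tinagl1* (0.32), *Anxa2* (0.30), which encodes a membrane-binding annexin, *Tm4sf1* (0.27) and *S100a6* (0.26). All 5 were above 0 in each mouse, with *S100a6* as low as 0.02 in 1 of them. The 5 most like the 7 genes together were *Anxa2* (0.36, from 0.29 to 0.50 over mice), *Ly6a* (0.28), *Tinagl1* (0.24), *Emp1* (0.24) and *Vim* (0.23). *Anxa2*, *Tinagl1* and *Vim* stood on both lists, which share *Cav1*.

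Other genes of caveolae and of the membrane systems around them gave no call between the genotypes either (edgeR and DESeq2), beside the 0.0123% of all genes tested. At an unadjusted p under 0.05 there were 1 coat and neck gene, 1 gene of the nitric oxide synthase list and 3 of cholesterol, and 0 in the other 4 lists (edgeR), beside 5.45% of all genes tested. Of 14 further coat and neck genes, 8 were tested and 3 lay above 0, with a median log2 fold change of -0.03. In this group *Ehd3*, another EHD protein, was at 34.2, 76.7, 15.5 and 38.2 CPM (log2 fold change 1.07, SE 0.46, adjusted p = 0.879, edgeR), with overlapping groups. *Flna*, the actin crosslinker filamin A, had -0.30, which turned to 0.48 with the smooth muscle-like cells included, and *Dnm2*, a dynamin, -0.21. *Cav3*, the muscle caveolin, was listed with no UMI in any endothelial cell. In the list of nitric oxide synthase and its partners, 13 of 15 genes were tested, with 6 above 0 and a median of -0.06. *Nos3* itself was at 551, 775, 627 and 502 CPM, with overlapping groups. *Ddah1* and *Ddah2*, which degrade an inhibitor of nitric oxide synthase, had -0.93 and 0.36, and *Nosip*, which binds the synthase, had 0.51.

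Receptors and channels known from endothelial caveolae had 15 of 18 genes tested, 6 of them above 0, and a median of -0.09. *Aqp1*, a water channel, was at 475, 448, 333 and 1194 CPM, and its log2 fold change of -0.67 turned to 0.48 without EC-WT mouse 2 and was called at -1.31 without EC-WT mouse 1 (adjusted p = 4.2e-06, edgeR). *Scarb1*, a lipoprotein receptor, had -0.61 and *Flt1*, a VEGF receptor, 0.48. All 11 flotillin and raft scaffold genes were tested, with 4 above 0 and a median of -0.13. The flotillins had opposite signs, 0.60 for *Flot1* and -0.50 for *Flot2*, the latter 0.039 without cells holding an *Acta2* UMI, and *Stom* had -0.47. Apart from *Aqp1* without that mouse, none of these values passed the test.

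Cholesterol, which caveolae need, had 10 of 20 genes of synthesis and transport tested, 5 above 0, with a median of 0.01. The 3 at an unadjusted p under 0.05 were *Dhcr7*, *Insig1* and *Abca1*. *Dhcr7*, an enzyme of the last steps of synthesis, had -1.78 on 4 to 14 UMIs per mouse, *Insig1*, a sterol sensor, had -1.06, and *Abca1*, a cholesterol exporter, had 0.56, all with an adjusted p of 0.879 (edgeR). *Abca1* was at 214 and 243 CPM in the mice labelled EC-KO against 149 and 169 CPM. Of the clathrin-coated pit genes, 17 of 20 were tested, 8 above 0, with a median of -0.01, and *Synj1*, *Itsn1* and *Eps15* had 0.62, 0.48 and -0.40. Of the genes of membrane shaping and mechanics, 11 of 16 were tested, 5 above 0, with a median of -0.01, and *Snx9*, *Cttn* and *Fyn* had 1.01, -0.47 and 0.27.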

How the data were processed

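Aortic cells of 4 mice, 2 labelled EC-KO and 2 labelled EC-WT, were profiled by SORT-seq, a plate form of CEL-Seq2 that reads the 3′ end of transcripts. For each plate the authors deposited UMI counts, read counts and expected counts of transcripts (UMI counts corrected for identifier saturation), none normalized, and a table of well numbers and positions that is the same for all plates. The submitters' processing notes name BWA 0.7.15, Seurat and the builds GRCm38 and mm10. Wells are numbered 1 to 384 in every plate, so that shared barcodes say nothing of shared cells, and no doublets were removed. Kept cells (at least 1000 nuclear UMIs and at most 25% mitochondrial) were log-normalized to 10000, and 2000 variable genes, 1 caveola gene among them being dropped, gave 10 principal components and 6 clusters in Seurat 5.3.0 (R 4.3.3, resolution 0.7). One cluster was called smooth muscle-like from 7 smooth muscle markers among its 10 leading genes; the other clusters were left unnamed.

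UMIs summed per mouse (1023791, 756392, 645799 and 549570 in endothelial cells) were compared with edgeR 4.0.16 (TMM, filterByExpr, quasi-likelihood test, Benjamini-Hochberg over all genes tested) and called at 0.05. DESeq2 1.42.0 was an alternative. Clusters with at least 5 cells in each mouse were tested in the same way, and leaving out 1 mouse rests on its group's remaining mouse having the spread of the other group. The script was tested on simulated data. Correlations used Pearson residuals with depth as the only term. Shares carry exact binomial intervals at 95%, which cover counting error only. Python 3.11.15, scipy 1.17.1 and matplotlib 3.10.9 made tables and figures. Same-numbered mice did not deviate together (correlation -0.04), so the numbers were not used as pairs.

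Named genes were the 7 caveola genes, from each list every called gene and the 3 with the largest fold change, and the 5 genes most correlated with *Cav1* and with the 7 genes together; *Epas1*, *Pecam1* and *Acta2* served as checks, and other names were chosen after their values were seen. *Pecam1* had a log2 fold change of 0.11 (adjusted p = 0.984, edgeR). The members and lists were chosen with earlier results of these data known. Besides those described, lists of lipid-handling endothelial, pericyte, adipocyte, lymphatic, erythroid and mesothelial markers were searched, of which the first summed to 407 to 706 CPM per mouse and the others to at most 74.6 CPM. Positions come from GENCODE M21, promoters from RefSeq. The opposite-strand genes overlapping *Cav1*, *Cav2*, *Sdpr* and *Prkcdbp* cannot be told apart from them if counting ignored strand, which is not given in the sources used here.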

Additional observations from a re-analysis of the deposited data

Results flagged for a closer look

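Caveola transcripts were read in wells outside the comparisons. In the 480 wells of plate rows L to P, of which none passed the filter for cells, there were 46 UMIs of *Cav1*, 42 of *Sdpr*, 30 of *Ehd4*, 23 of *Ptrf*, 17 of *Prkcdbp* and 8 of *Cav2*, each above 3 counts, the largest mean that a count of 0 allows, and 3 of *Ehd2*. Per well this was 0.0958 UMIs of *Cav1* and 0.0479 of *Ptrf*, against 9.54 to 20.8 and 5.88 to 9.34 per endothelial cell of the 4 mice. Groups of 2 mice are too small for a check of single outlying mice.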

How the results depend on the processing

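No caveola gene was called under any of the 19 alternative fits across genes. *Ptrf*, *Prkcdbp* and *Ehd2* kept their sign in all 20 alternatives. *Ptrf* ran from -0.73 to -0.35, with no adjusted p under 0.271 (edgeR or DESeq2), and *Ehd2* ran from -0.55 to -0.026. *Cav1* turned to 0.073 on read counts and 0.30 in the same-flow-cell pair, and ran from -0.38 to 0.24 with 1 mouse left out. Left out likewise, *Cav2* ran from -0.20 to -0.034, *Sdpr* from 0.00032 to 0.22, *Prkcdbp* from -0.33 to -0.035, *Ehd2* from -0.45 to -0.094 and *Ehd4* from -0.23 to -0.052. *Cav2* turned to 0.75 and *Ehd4* to 0.022 on read counts. *Sdpr* turned to -0.0068 without cells holding an *Acta2* UMI, a choice made after seeing the data, and to -0.11 in the pair, where *Ehd2* and *Ehd4* moved to -0.026 and -0.021. With 1 mouse left out, *Ptrf* ran from -0.55 to -0.35, *Aqp1* from -1.31 to 0.48, *Epas1* from -0.044 to 0.46 and *Pecam1* from -0.14 to 0.33. *Scarb1* likewise ran from -1.37 to -0.17, *Flot2* from -0.83 to -0.054 and *Ddah1* from -1.30 to -0.48. *Itsn1* ran from 0.18 to 0.71, *Flna* from -0.48 to -0.11 and *Fyn* from 0.13 to 0.44. In the pair, *Aqp1* was 0.40 and *Epas1* -0.023. Without cells holding an *Acta2* UMI, *Epas1* was -0.14, *Pecam1* -0.18, *Ddah1* 0.36, *Ddah2* -0.22, *Flot2* 0.039, *Fyn* -0.071 and *Stom* 0.44. *Pecam1* was -0.0050 with wells of at least 500 UMIs, and *Flna* was 0.48 over all kept cells, 0.49 at 500 UMIs, 0.48 with no mitochondrial limit and 0.16 thinned. The cause of these changes was not tested.

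Over all genes, the count called higher in EC-KO was 1. It was 2 with DESeq2, 12 without a low-count filter, 10 over all kept cells, 13 at 500 UMIs, 2 at 2000 UMIs, 16 with no mitochondrial limit, 0 on read counts, 8 thinned and 0 without cells holding an *Acta2* UMI. The count called lower was 0, and 8, 1 and 1 without a filter, with no mitochondrial limit and thinned. With 1 mouse left out the counts ran from 13 to 29 higher and from 4 to 48 lower, the most without EC-WT mouse 1, where 2 genes of the list of caveola receptors and channels, *Aqp1* and *Plvap*, were called (0 to 2 over the mice). *Acta2*, the gene called, was 1.65 on read counts and 1.90 under the block, no longer past the threshold. The replicate block called 0 genes, and under it *Ptrf* was -0.45 (adjusted p = 0.957, edgeR); the numbers are not stated to pair mice.

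The share of cells, as EC-KO minus EC-WT in percentage points, turned to 0.786 for *Cav1* and 0.425 for *Ehd2* in cells of at least 2000 UMIs. Without thinning it turned to 5.85 for *Cav2*, 2.70 for *Prkcdbp*, 0.554 for *Ehd2* and 1.68 for *Ehd4*. In cluster 4, *Ptrf* moved to 1783 CPM with thinned cells and *Sdpr* to 2038 CPM in cells with a *Cd36* UMI. On log-normalized values 11 pairs correlated above 0 in each mouse. Counts were lowest for *Ehd2*, with 113 to 137 UMIs per mouse, and in the 15 smooth muscle-like cells.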
